A study of Homo sapiens with 9 samples.

Results

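The long arm of chromosome 17 (17q) was followed here as a block of neighbouring genes in 3 stable lines of T47D, an established luminal breast cancer cell line. A gene was taken as a member when its probe lay on chromosome 17 at position 25500000 or beyond in hg19 and was well above background on all 3 arrays of at least 1 line. This rule gave 832 genes of the 20099 tested across the genome. They were chosen by position and by the detection mark of the scanner software, and the arm itself was picked with earlier results of these arrays known. Genes that have separate accounts, such as ERBB2, STAT3, CCL5 and the keratin, collagen and integrin families, were left out by name, 134 genes of 1562 on the arm before detection was considered.

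T47D-VC1 carries an empty vector and is the control. T47D-PA6 expresses full-length PTH-AS, a lncRNA encoded downstream of the parathyroid hormone gene, and T47D-PA5 expresses an incomplete PTH-AS that lacks the 5′ end. All 3 lines share the pTARGET vector, Lipofectamine transfection and G418 selection, and each stands for 1 selected line of stable transfectants, so a difference between lines is also a difference between selected lines. Each line was hybridised to 3 single-color arrays, and as the labels do not say that these came from separate cultures, the p-values measure only the spread between the arrays, which may be technical. PTH-AS itself was not measured here.

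The long arm of chromosome 17 is among the regions most often rearranged in breast cancer. It holds the ERBB2 region and a 17q23 block that are amplified in some tumors, the HOXB cluster of positional identity genes, BRCA1 and other repair genes, and a cluster of CC chemokine genes. It also holds housekeeping genes for ribosomes, proteasomes and mitochondria, so neighbours on the arm differ widely in what they do.

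Between 44.0% and 48.0% of probes were well above background per array, no spot was saturated, and the lowest signal well above background ranged from 9.59 to 15.2. All 9 markers of luminal cells, among them ESR1, GATA3 and KRT8, were well above background on every array. Their summed signal was 491700 to 530300 in T47D-VC1, 518300 to 530300 in T47D-PA5 and 504600 to 523100 in T47D-PA6. KRT19 made up most of it, with means of 301400, 301400 and 292600, so the sum says little of dimmer markers. The mean of PGR went from 15080 to 11590 and 7201, and that of FOXA1 from 9548 to 8759 and 7976. Between T47D-VC1 and T47D-PA6, ESR1 and KRT19 also went down, while GATA3, EPCAM, CDH1, KRT8 and KRT18 went up. Of 6 markers of basal or mesenchymal cells, KRT5, TP63 and ZEB1 reached the mark of well above background on no array. The summed signal of those 6 was 33.5 to 40.5 in T47D-VC1, 50.4 to 75.8 in T47D-PA5 and 76.0 to 133 in T47D-PA6. VIM, the intermediate filament of mesenchymal cells, made up most of that increase, with mean signals of 6.37, 24.9 and 67.5. CD3E, PECAM1 and COL3A1, of T cells, endothelium and fibroblasts, likewise reached it on no array, whereas PTPRC, CDH5 and COL1A1 did so on all of them. The summed fibroblast markers were 338 to 378 in T47D-VC1 and 242 to 278 in T47D-PA6. The part of these levels in the results on 17q was not tested.

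The sequences below belong to LGALS3BP, the gene of 17q with the largest called rise in T47D-PA6 among those well above background on every array, and to IFI35, another interferon-responsive gene of the arm that rose. The first pair are the 250 bases before the start of each gene in RefSeq (GRCh38.p14), for LGALS3BP chr17:78979924-78980173 on the minus strand and for IFI35 chr17:43006534-43006783 on the plus strand. In LGALS3BP the capitals mark the letters GAAA repeated after a spacer of 2 bases, the core of the interferon-stimulated response element, and in IFI35 they mark a match to TTCNNNGAA, the palindrome bound by STAT dimers.
LGALS3BP promoter: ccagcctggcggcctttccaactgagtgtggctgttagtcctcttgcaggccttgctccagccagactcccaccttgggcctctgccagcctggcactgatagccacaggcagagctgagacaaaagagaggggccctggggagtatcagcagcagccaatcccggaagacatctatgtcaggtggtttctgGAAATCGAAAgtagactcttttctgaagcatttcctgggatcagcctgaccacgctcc
IFI35 promoter: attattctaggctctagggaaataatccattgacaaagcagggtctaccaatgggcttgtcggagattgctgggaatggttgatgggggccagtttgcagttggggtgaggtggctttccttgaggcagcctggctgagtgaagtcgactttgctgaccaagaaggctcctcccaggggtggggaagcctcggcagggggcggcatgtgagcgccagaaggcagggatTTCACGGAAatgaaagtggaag

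Both motifs were searched on both strands, and the 2 do not overlap in these windows. The first was found in 839 of 27305 such windows of all genes (3.07%) and in 6 of the 428 members of 17q that had an entry (1.4%). Among members called higher in T47D-PA6 over T47D-VC1 it was in 1 of 8 with an entry, LGALS3BP, and among those called lower in 0 of 37. The second motif was in 1850 windows of all genes (6.78%) and in 24 of the 428 (5.61%), with IFI35 the 1 of 8 called higher and PSME3 the 1 of 37 called lower. A match in these letters is a description of the window only.

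The next pair are the array probes that read the LGALS3BP locus, in hg19. The LGALS3BP probe lies at chr17:76968048-76968107 on the minus strand, the strand of the gene. The probe A_33_P3265205, which the files give no gene name, lies at chr17:76968334-76968393 on the plus strand, 226 bases further on, and so reads the opposite strand of the same locus.
LGALS3BP probe: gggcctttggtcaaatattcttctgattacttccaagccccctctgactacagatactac
A_33_P3265205 probe: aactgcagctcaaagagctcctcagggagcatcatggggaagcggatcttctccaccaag

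The genes of 17q were lower in T47D-PA6 than in the other lines, by a small amount spread over the whole arm. On the log2 scale the median difference of the 832 genes between T47D-PA6 and T47D-VC1 was -0.19, a ratio of 0.876, with quartiles of -0.38 and 0.02. The median over all genes tested was -0.03. Of the 832 genes, 609 had a log2 fold change below 0 (73.2%), against 54.4% of all genes. Against T47D-PA5 the median was also low, at -0.20, with 626 genes below 0 (75.2%), where all genes had a median of -0.001 and 50.2% below 0. Between T47D-PA5 and T47D-VC1 the median of 17q was 0.01, with 48.2% of its genes below 0 against 54.7% of all genes. The comparisons share arrays, T47D-PA6 in 2 of them and T47D-VC1 in 2, so their medians are not independent. In a bulk extract, fewer cells of a kind and less RNA per cell cannot be told apart.

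**Figure D1:**
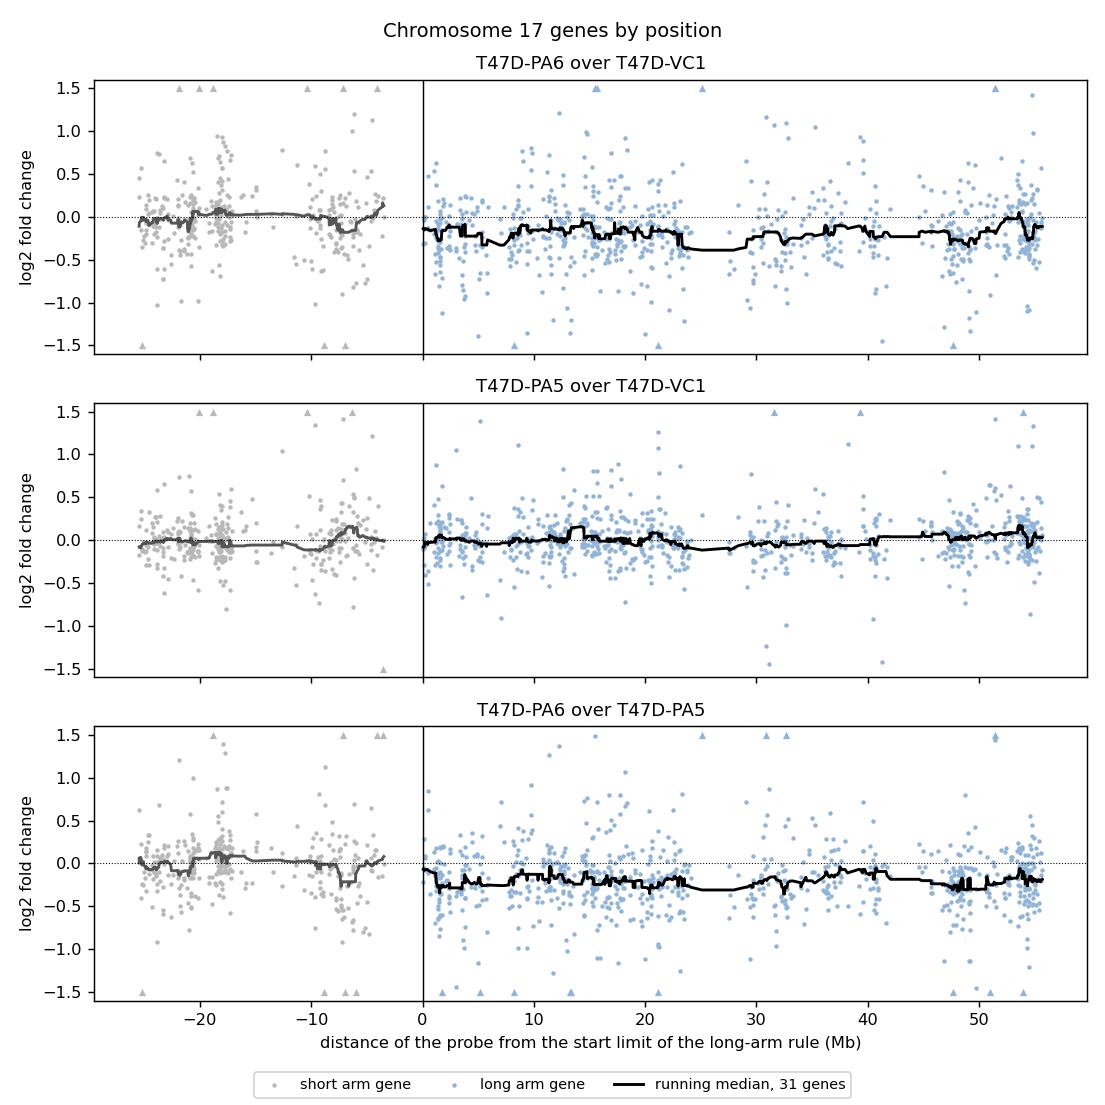
Log2 fold change of each gene of chromosome 17 (vertical axis) by distance of its probe from the start limit of the long arm (horizontal axis, Mb), for the 3 comparisons. Short-arm genes are gray, long-arm genes blue, the dark line is the running median over 31 genes, and triangles at the upper or lower edge stand for values beyond the axis. In both comparisons with T47D-PA6 the long-arm running median lies below the dotted 0 line along almost the whole arm, while in T47D-PA5 over T47D-VC1 it stays near that line.

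Within each array the pattern was the same for the 3 arrays of T47D-PA6. The median of 17q, relative to the mean of T47D-VC1, was -0.11, -0.22 and -0.24 on the T47D-PA6 arrays, a mean of -0.19 ± 0.07 (SD, n = 3). It was 0.07, -0.03 and -0.02 on the T47D-VC1 arrays and 0.01, 0.02 and 0.00 on the T47D-PA5 arrays. Every T47D-PA6 array thus lay below all 6 arrays of the other lines, though for replicate 1 the margin was small once the whole array was considered. Less the median of all genes on the same array, 17q stood at -0.05, -0.20 and -0.22 in T47D-PA6, 0.07, -0.04 and -0.02 in T47D-VC1, and 0.02, 0.05 and 0.03 in T47D-PA5. The 346 genes of the short arm did not share the shift, with medians of -0.03, 0.01 and 0.00 on the T47D-PA6 arrays and a median log2 fold change over T47D-VC1 of -0.01.

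Replicate 1 of each line was hybridised on 1 slide and scanned in an earlier run, and the other arrays were on 2 further slides scanned later. Within the earlier run the median of 17q in T47D-PA6 over T47D-VC1 was -0.17 (1 array against 1), and within the later run it was -0.19 (2 against 2). Within the slide that held 2 arrays of T47D-PA6 and 1 of each other line it was -0.21. The medians of all genes in these 2 runs were -0.05 and -0.01. For T47D-PA6 over T47D-PA5 the median of 17q was -0.10 in the earlier run and -0.24 in the later, where all genes stood at -0.05 and 0.02, so that 17q differed from all genes by -0.06 and -0.26. For T47D-PA5 over T47D-VC1 it was -0.05 in the earlier run and 0.05 in the later, on opposite sides of 0.

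**Figure D2:**
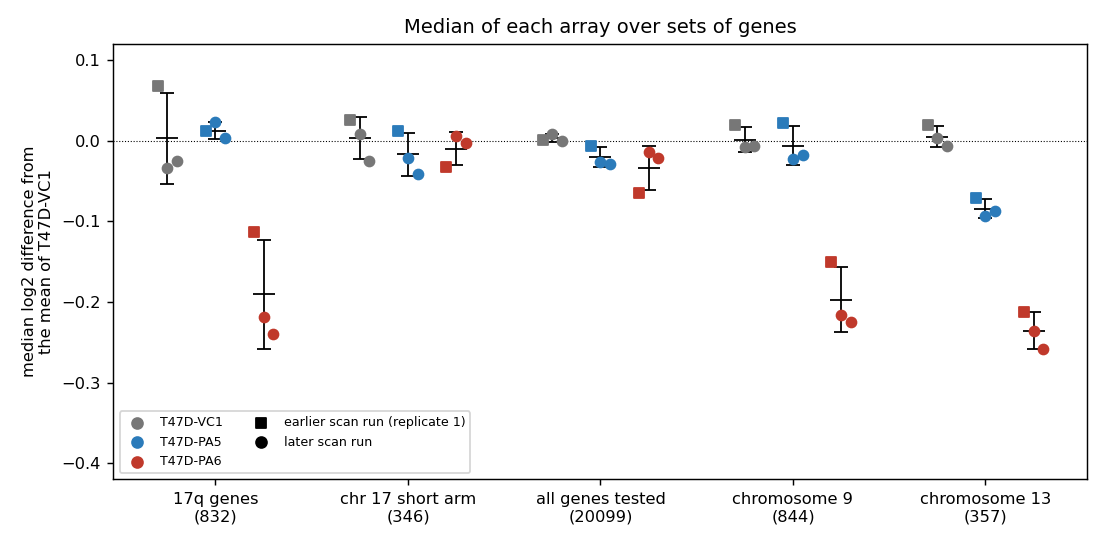
Median log2 difference from the mean of T47D-VC1 (vertical axis) over sets of genes (horizontal axis), with 1 point per array. Squares are arrays of the earlier scan run, circles those of the later run, and black bars give the mean ± SD of the 3 arrays of a line. The 3 T47D-PA6 arrays sit between -0.24 and -0.11 for 17q, below every other array, and near 0 for the short arm.

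17q was not the only stretch of the genome with a shift of this size. Among 24 chromosomes or arms of chromosome 17 ranked by their median in T47D-PA6 over T47D-VC1, chromosome 13 (357 genes, -0.24) and chromosome 9 (844 genes, -0.21) were lower than 17q, and chromosome 16 followed at -0.10. For chromosome 13 the T47D-PA5 arrays also lay below 0, at -0.07, -0.09 and -0.09, unlike for 17q. No order between 17q, chromosome 9 and chromosome 13 was tested.

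Along the arm the lower level was broad. All 12 windows of 5 Mb had a median below 0 in T47D-PA6 over T47D-VC1, from -0.42 to -0.10. The running median over 31 genes lay below the median of all genes at 801 of the 832 positions, with a range of -0.39 to 0.05. In T47D-PA6 over T47D-PA5 it did so at all 832 positions, and in T47D-PA5 over T47D-VC1 at 209. At the limit of the rule the genes just inside, ENST00000581944, ENST00000479473 and WSB1, had log2 differences between T47D-PA6 and T47D-VC1 of -0.31, -0.14 and -0.01. The last ones outside, XLOC_l2_005714, FLJ36000 and MTRNR2L1, had -0.22, 0.22 and -0.0028.

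**Figure D3:**
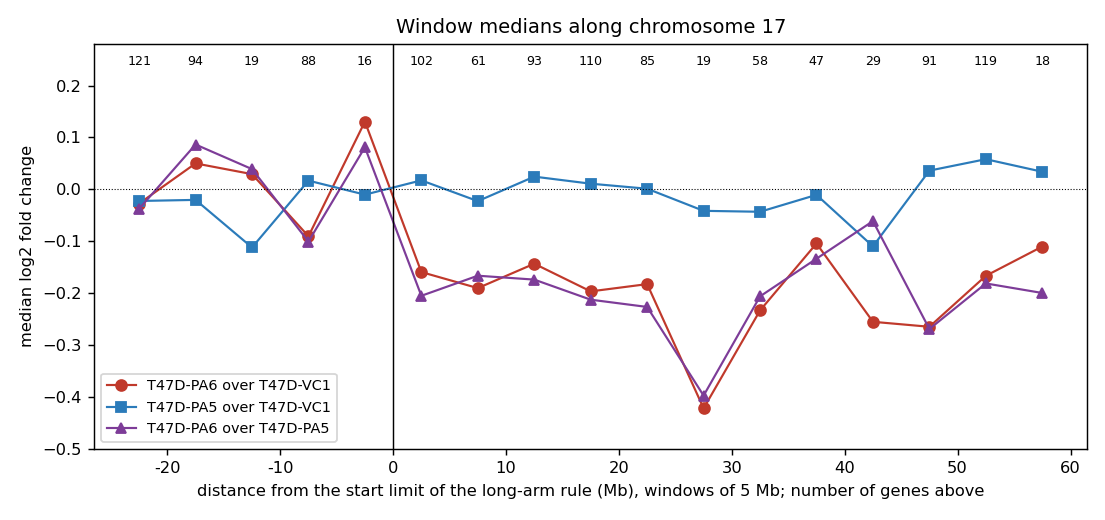
Median log2 fold change (vertical axis) of genes in 5 Mb windows along chromosome 17, by distance from the start limit of the long arm (horizontal axis, Mb), for the 3 comparisons. The number of genes stands above each window, and windows under 15 genes are not drawn. All windows of the long arm lie below 0 in both comparisons with T47D-PA6, the lowest at -0.42.

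The lowest window, with 19 genes between 50613002 and 55357314, had a median of -0.42. In it 5 genes were called lower, against 9.74% of 17q and 5.33% of all genes. The window was picked for its low median and its named genes for their adjusted p. Their p-values are therefore no separate support for the window. TOM1L1, an adaptor of receptor sorting, had signals of 2499, 2999 and 3198 in T47D-VC1, 2437, 3157 and 2953 in T47D-PA5, and 1911, 1804 and 1743 in T47D-PA6. It fell by 0.67 (log2) against T47D-VC1 (SE 0.13, limma adjusted p = 0.0202). MMD, a membrane protein first found in maturing macrophages, went from 1834, 2444 and 2286 in T47D-VC1 and 2040, 1991 and 2084 in T47D-PA5 to 1313, 1512 and 1474 in T47D-PA6. The T47D-PA6 arrays did not overlap the others for either gene, and MMD fell by 0.60 against T47D-VC1 (limma adjusted p = 0.0218). The noncoding LOC101927471 fell by 0.74 (limma adjusted p = 0.00462). The same window also held ENST00000572848, with signals of 58.5, 81.3 and 85.7 in T47D-PA6, all well above background, whereas no T47D-VC1 array had it above background by that mark. T47D-PA6 was at least 5.95-fold higher than the control, the bound being set by the lowest signal well above background on the T47D-VC1 arrays. This transcript was a member through T47D-PA6 alone, so the difference is a description. Without replicate 2 or 3 of T47D-VC1, or without replicate 2 or 3 of T47D-PA6, the calls of TOM1L1 and MMD were lost.

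The lower level was seen in coding and other members and at every brightness but the highest. The 558 protein-coding members had a median of -0.21 with 77.1% below 0, and the others a median of -0.13. Divided into 3 equal parts by mean signal over all arrays, the brightest and the middle part both had a median of -0.19, with 80.9% of the brightest below 0, and the dimmest -0.17. The 10 brightest had a median of -0.02 and the 20 brightest -0.06, compared with -0.18 for the 100 brightest. RPL23, a ribosomal protein gene and the brightest, had signals of 187800, 168700 and 165700 in T47D-VC1 and 182500, 167100 and 157900 in T47D-PA6, which overlap. RPL23A and RPL38, also ribosomal, and the initiation factor EIF1, next in order of signal in T47D-VC1, had log2 fold changes of -0.01, 0.02 and 0.01. The value of RPL23A is of its brightest probe, and its 4 tested probes ranged from -0.50 to -0.01. Where a gene had several tested probes, 178 genes in all, the probes were all below 0 in 124, all above in 16 and of mixed sign in 38.

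Taken gene by gene, 81 genes of 17q were called lower and 18 higher in T47D-PA6 over T47D-VC1 (limma adjusted p under 0.05), where 5.33% of all genes tested were called lower and 4.69% higher. In T47D-PA6 over T47D-PA5, 76 were called lower and 12 higher, against 6.06% and 3.65% of all genes. In T47D-PA5 over T47D-VC1, 2 were called lower and 6 higher, against 0.299% and 1.37%. Of these, BZRAP1 (lower) and the probe A_33_P3265205 (higher) are descriptions with no test. BZRAP1 was a member through T47D-VC1 and T47D-PA6 only. A_33_P3265205 was a member through T47D-PA6 alone, and no array of T47D-VC1 or T47D-PA5 had it well above background. At an unadjusted p under 0.05, 247 were lower and 51 higher over T47D-VC1, where 3153 and 2183 of the 20099 genes were. Against T47D-PA5 these were 252 and 33, of 2915 and 2081 over all genes, and for T47D-PA5 over T47D-VC1 26 and 59, of 1382 and 1751. Lower than both other lines were 44 genes (5.29% of 17q, against 2.77% of all genes) and higher than both 5 (0.601% against 2.01%). The 5 include A_33_P3265205 and ENST00000572848, members through T47D-PA6 alone, and BZRAP1, which was not a member through T47D-PA5. The 44 include SLFN13 and lnc-NT5C-2, which were not members through T47D-PA6. For all of these genes the differences are descriptions with no test. On 202 genes (24.3%, against 9.88% of all genes) every array of T47D-PA6 lay below all 6 other arrays, and on 22 (2.64%, against 6.8%) above them. By ratio alone, with no test, 11 genes were above 2 and 49 below 0.6 in T47D-PA6 over T47D-VC1, against 3.47% and 4.16% of all genes. In T47D-PA5 over T47D-VC1 these were 13 and 7, against 2.16% and 1.76%, and in T47D-PA6 over T47D-PA5 9 and 46, against 2.69% and 5.3%. Of the 609 genes below 0 over T47D-VC1, 81 were thus called, and the called falls had a median of -0.62 on the log2 scale and 13 of 81 over 1 in size.

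These counts rested heavily on single arrays, and so did the excess of 17q over all genes. The number called lower in T47D-PA6 over T47D-VC1 was 15 without T47D-VC1 replicate 3 (1.8% of 17q against 1.46% of all genes) and 13 without T47D-PA6 replicate 3 (1.56% against 1.51%), where 17q hardly differed from all genes. It was 27 without T47D-VC1 replicate 2 (3.25% against 2.23%), 19 without T47D-PA6 replicate 2 (2.28% against 1.78%), and 47 and 43 without T47D-PA5 replicates 2 and 3 (5.65% against 3.22%, and 5.17% against 2.93%). It was 124 without T47D-PA6 replicate 1 (14.9% against 7.41%). The number called higher was 10 and 7 without T47D-VC1 replicates 2 and 3, 9 without T47D-PA6 replicate 2 or 3, 12 without T47D-PA5 replicate 3, and 28 without T47D-VC1 replicate 1, and in each of these its share of 17q (0.841% to 3.37%) was below that of all genes (1.97% to 5.73%). The median over the arm stayed between -0.22 and -0.16.

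In T47D-PA6 over T47D-PA5 the number called lower was 21 and 19 without T47D-PA5 replicates 2 and 3, and 19 and 20 without T47D-PA6 replicates 2 and 3. In these 4 settings the share of 17q called lower (2.52%, 2.28%, 2.28% and 2.4%) was at or below that of all genes (2.63%, 2.4%, 2.4% and 2.41%). The number was 49 without T47D-VC1 replicate 3 (5.89% against 4.46%), 118 without T47D-VC1 replicate 1 (14.2% against 8.28%) and 131 without T47D-PA6 replicate 1 (15.7% against 8.2%). The number called higher was 4 to 6 without replicate 2 or 3 of T47D-PA5 or T47D-PA6 (0.481% to 0.721% against 1.2% to 1.59%), and 19 without T47D-VC1 replicate 1 (2.28% against 4.98%). In T47D-PA5 over T47D-VC1 the number called higher was 1 to 3 without replicate 2 or 3 of any line (0.12% to 0.361% against 0.373% to 0.915%). It was 10 without T47D-PA6 replicate 1 (1.2% against 2.37%) and 12 without T47D-PA5 replicate 1 (1.44% against 1.6%). The number called lower there was 1 without T47D-VC1 replicate 2 or 3 or T47D-PA5 replicate 3 (0.12% against 0.0995% to 0.174%), and 4 without T47D-PA6 replicate 1 (0.481% against 0.711%).

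Of the 832 members, 767 passed the detection mark on all 9 arrays, and this set holds 75 of the falls and 14 of the rises. The other 65 passed through 1 or 2 lines, 17 through T47D-VC1 alone, 9 through T47D-PA5 alone, 9 through T47D-PA6 alone, and 16, 8 and 6 through pairs of lines. A gene that passed only through the line where it is high had to differ, so no count over these is read further. At the limit of detection, RHBDL3 and lnc-ABCA8-2 were just inside with mean signals up to 21.6 and 26.3 in the line that admitted them. NGFR, just outside, was well above background on 2 arrays of every line, with mean signals of 19.2, 19.4 and 34.1.

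Among the rises, interferon-responsive genes held the largest with a named product. LGALS3BP encodes a secreted glycoprotein that binds galectins. Its signals were 492, 445 and 452 in T47D-VC1, 469, 868 and 857 in T47D-PA5, and 1875, 1964 and 1884 in T47D-PA6. All T47D-PA6 arrays lay above all others, and in T47D-PA5 the earlier array stood with the control. LGALS3BP rose by 2.04 over the control on the log2 scale (SE 0.22, limma adjusted p = 0.0015), and by 1.44 over T47D-PA5 (limma adjusted p = 0.00705). The value for T47D-PA5 over T47D-VC1 was 0.61 (limma adjusted p = 0.226). The call over T47D-VC1 was kept in 20 of 20 other settings.

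The opposite-strand probe A_33_P3265205 at the same locus, shown above, was highest in the same line, at a far lower level. It read 2.93, 2.99 and 3.0 in T47D-VC1, 7.17, 10.71 and 6.42 in T47D-PA5, and 23.6, 26.7 and 31.9 in T47D-PA6, and only the last were well above background. T47D-PA6 was at least 2.18-fold higher than T47D-VC1 and at least 2.09-fold higher than T47D-PA5. As this probe was a member through T47D-PA6 alone, that is a description with no test.

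IFI35, a cytoplasmic protein induced by interferon, had signals of 1292, 947 and 809 in T47D-VC1, 1348, 2064 and 1906 in T47D-PA5, and 3230, 2708 and 2685 in T47D-PA6. It rose by 1.52 on the log2 scale over T47D-VC1 (SE 0.21, limma adjusted p = 0.00454). The value over T47D-PA5 was 0.72 (limma adjusted p = 0.0731), although the arrays of the 2 lines did not overlap. SLFN13, an RNA-cleaving member of the Schlafen family, was lowest in T47D-PA6 and a member through the other lines only. Its signals were 52.9, 21.7 and 25.4 in T47D-VC1, 31.9, 41.9 and 47.8 in T47D-PA5, and 8.65, 2.65 and 6.26 in T47D-PA6, where no array was well above background. Relative to T47D-VC1 it was at least 2.66-fold lower and relative to T47D-PA5 at least 3.45-fold lower, which is a description with no test. LGALS9, a galectin, rose over T47D-PA5 by 0.84 (limma adjusted p = 0.0213), and its value over T47D-VC1 was 0.48 (limma adjusted p = 0.12). That value is of its brightest probe, and its 3 tested probes ranged from 0.48 to 2.82. Of 10 interferon-responsive genes of the arm that were members, 2 thus rose and 1 fell over T47D-VC1, and 2 rose and 1 fell over T47D-PA5. The fall in both was that of SLFN13, admitted only through the lines where it was higher. None was called in T47D-PA5 over T47D-VC1. The median of the 10 over T47D-VC1 was -0.09. STAT3, STAT5A, CCL5 and DHX58 are not among them, having been left out by name.

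SECTM1, an immune cell ligand of the secretory pathway, had signals of 888, 543 and 457 in T47D-VC1, 1328, 1284 and 1275 in T47D-PA5, and 2200, 1387 and 1381 in T47D-PA6. It rose by 1.42 over T47D-VC1 (limma adjusted p = 0.0144), a call lost without T47D-VC1 replicate 2 or 3, and over T47D-PA5 the value was 0.32 (limma adjusted p = 0.507). MRC2, a collagen uptake receptor, had 841, 769 and 679 in T47D-VC1, 1514, 981 and 1021 in T47D-PA5, and 1722, 1474 and 1516 in T47D-PA6. It rose by 1.04 over T47D-VC1 (limma adjusted p = 0.0102), while 1 array of T47D-PA5 lay within the range of T47D-PA6. AOC3, a vascular amine oxidase, had 32.8, 11.8 and 11.96 in T47D-VC1 and 34.0, 77.9 and 76.9 in T47D-PA6, a log2 fold change of 1.82. It was a member through T47D-PA5 and T47D-PA6 only, so that value is a description with no test. Replicate 1 of both lines read alike for AOC3, and its limma call was kept in 7 of 19 other settings. CRHR1-IT1, a transcript within the CRHR1 locus, rose by 0.92 at its brightest probe (limma adjusted p = 0.0348) and was likewise kept in 7 of 20. Its second probe had a value of 0.15, and with the mean of both the value was 0.53 and the call was lost.

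BZRAP1 (now TSPOAP1), a scaffold protein of synapses and mitochondria, differed between all 3 lines. Its signals were 21.2, 15.2 and 15.5 in T47D-VC1, 7.36, 7.24 and 7.14 in T47D-PA5, where it was not well above background, and 36.1, 41.96 and 37.4 in T47D-PA6. It rose by 1.17 in T47D-PA6 over T47D-VC1 (limma adjusted p = 0.0024). BZRAP1 was a member through these 2 lines, where it was the higher. T47D-PA6 was at least 2.96-fold higher than T47D-PA5, and T47D-VC1 at least 1.31-fold higher than T47D-PA5, which are descriptions with no test.

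A few genes were raised in both PTH-AS lines or in T47D-PA5 alone. TEX19, a germ cell protein, read 120, 186 and 143 in T47D-VC1, 306, 409 and 403 in T47D-PA5, and 258, 316 and 301 in T47D-PA6. It rose over T47D-VC1 by 1.33 in T47D-PA5 (limma adjusted p = 0.0138) and by 0.98 in T47D-PA6 (limma adjusted p = 0.0158), calls lost without T47D-VC1 replicate 3 and without replicate 2 or 3 of the line compared. SLC46A1, the proton-coupled folate transporter, read 506, 513 and 540 in T47D-VC1, 839, 1040 and 1003 in T47D-PA5, and 820, 794 and 787 in T47D-PA6. It rose by 0.88 (limma adjusted p = 0.00637) and 0.62 (limma adjusted p = 0.0101), and no array of T47D-VC1 overlapped those of the other lines for either gene. RASL10B, a small GTPase, rose in T47D-PA5 by 1.12 (limma adjusted p = 0.0451) and CNTNAP1, an axonal adhesion protein, by 0.81 (limma adjusted p = 0.0405), and these calls were kept in 9 and 7 of 20 other settings. Of the 2 genes called lower in T47D-PA5, BZRAP1 is a description only, and the noncoding lnc-SLC16A3-5 fell by 0.86 (limma adjusted p = 0.0142).

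**Figure D4:**
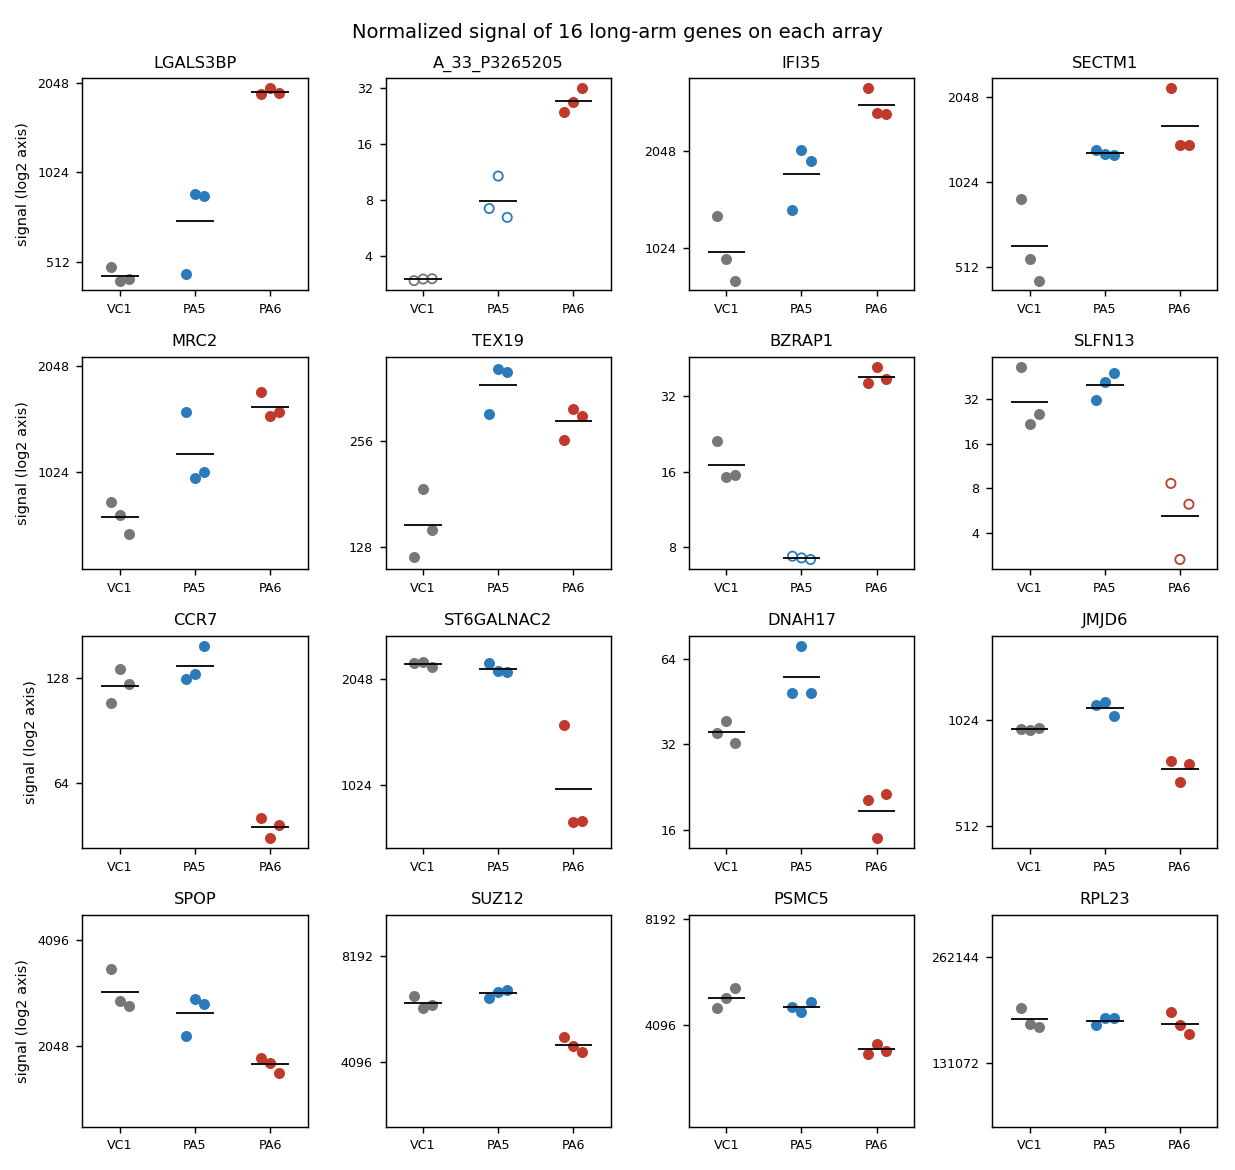
Normalized signal on a log2 axis (vertical) of 16 genes of 17q in the 3 lines (horizontal), with 1 point per array and the mean as a line. Open circles stand for a line in which the probe was not well above background on all 3 arrays. The upper genes, led by LGALS3BP, are highest in T47D-PA6 apart from TEX19, those from SLFN13 on are lowest there, and RPL23 is level.

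Of the falls, CCR7 held in every setting. CCR7 is the lymph node homing receptor of lymphocytes and some carcinoma cells. Its signals were 108, 136 and 123 in T47D-VC1, 127, 131 and 159 in T47D-PA5, and 50.8, 44.3 and 48.2 in T47D-PA6. It fell by 1.35 (log2) against T47D-VC1 (SE 0.13, limma adjusted p = 0.000869) and, relative to T47D-PA5, by 1.54 (limma adjusted p = 0.00094), and T47D-PA6 lay below all other arrays. ST6GALNAC2, which adds sialic acid to O-glycans, had 2284, 2296 and 2224 in T47D-VC1, 2275, 2157 and 2154 in T47D-PA5, and 1520, 804 and 812 in T47D-PA6. It fell by 1.19 (limma adjusted p = 0.0154), with replicate 1 of T47D-PA6 nearer to the other lines than the later 2, and the call was lost without replicate 2 or 3 of T47D-VC1 or of T47D-PA6. DNAH17, an axonemal dynein chain, had 35.04, 38.6 and 32.3 in T47D-VC1, 48.4, 71.0 and 48.5 in T47D-PA5, and 20.4, 14.9 and 21.3 in T47D-PA6. It fell by 0.92 against T47D-VC1 (limma adjusted p = 0.0228) and, relative to T47D-PA5, by 1.56 (limma adjusted p = 0.00363).

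The other largest falls were noncoding or unnamed transcripts. LOC100131347 fell by 1.21 (limma adjusted p = 0.0144), from 148 to 260 in T47D-VC1 to 83.2 to 102 in T47D-PA6. The transcripts lnc-MYO19-1, lnc-METTL23-2, lnc-GPR142-1, ENST00000512717 and ENST00000422957 fell by 1.2 to 1.36, with limma adjusted p values of 0.023 to 0.0319. The call of lnc-MYO19-1 was kept in 15 of 19 other settings and that of ENST00000512717 in 11 of 19. Those of lnc-METTL23-2, lnc-GPR142-1 and ENST00000422957 were each kept in 11 of 20. Without T47D-VC1 replicate 3 every one of these calls was lost. lnc-NT5C-2 stood clear of background on no array of T47D-PA6 and was at least 1.33-fold lower there than in T47D-VC1, through which alone it was a member, so this too is a description. In all, 31 of the 81 genes called lower and 4 of the 18 called higher were not annotated as protein-coding. These are 11.3% and 1.46% of the 274 such members, against 8.96% and 2.51% of the 558 protein-coding members. The 274 include the 222 members that matched no RefSeq entry, so they are not all known to be noncoding. No difference between these 2 classes was tested.

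Grouped by role, the members had list medians from -0.35 for chromatin and proteasome genes to -0.01 for ribosomal protein genes. The lists were set by role with results of these arrays known, some hold genes of other roles, and their medians are descriptions. They are given beside the arm median of -0.19 and the all-gene median of -0.03, as log2 fold changes of T47D-PA6 over T47D-VC1 where no other comparison is named. Counts called in a list stand against 9.74% of 17q and 5.33% of all genes called lower over T47D-VC1, 2.16% and 4.69% called higher, and 9.13% and 6.06% called lower over T47D-PA5, and no list was tested against these shares. Of 71 calls on genes chosen for naming, over the 3 comparisons, 30 to 44 were kept when a later array was left out and 56 to 66 when an earlier one was.

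Of 26 genes listed for chromatin, which include the splicing factors SRSF1 and SRSF2, the median was -0.35, with 21 below 0 and 4 called lower. SUZ12, a core subunit of Polycomb repressive complex PRC2, had signals of 6311, 5800 and 5935 in T47D-VC1, 6205, 6477 and 6557 in T47D-PA5, and 4823, 4521 and 4358 in T47D-PA6. The T47D-PA6 arrays lay below all others, and SUZ12 fell by 0.40 against T47D-VC1 (SE 0.09, limma adjusted p = 0.0286) and, relative to T47D-PA5, by 0.49 (limma adjusted p = 0.0129). JMJD6, a lysyl hydroxylase, had 961, 955 and 969 in T47D-VC1, 1125, 1148 and 1048 in T47D-PA5, and 782, 682 and 767 in T47D-PA6. It fell by 0.37 (limma adjusted p = 0.0415) and, relative to T47D-PA5, by 0.58 (limma adjusted p = 0.00852). UBTF, a ribosomal DNA transcription factor, and KAT7, a histone acetyltransferase, each fell by 0.38 (limma adjusted p = 0.0304 and 0.0326). Against T47D-PA5, 7 of the 26 were called lower. Each of the 4 calls against T47D-VC1 was lost when replicate 2 or 3 of any line was left out.

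Of 21 cell division genes the median was -0.34, with 19 below 0, 3 called lower against T47D-VC1 and 5 against T47D-PA5. STRA13 (now CENPX), a centromere and DNA repair protein, had 25180, 26310 and 26430 in T47D-VC1, 24460, 21470 and 22210 in T47D-PA5, and 19180, 17160 and 18940 in T47D-PA6. It fell by 0.50 (limma adjusted p = 0.0165). PSMC3IP, which acts in homologous recombination, fell by 0.62 (limma adjusted p = 0.0244), and CDK5RAP3, an adaptor of ufmylation, by 0.58 (limma adjusted p = 0.0271).

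All 7 members listed as proteasome genes had values below 0, with a median of -0.35 and 3 called lower. PSMC5, an ATPase of the proteasome cap, had 4583, 4889 and 5213 in T47D-VC1, 4599, 4457 and 4745 in T47D-PA5, and 3392, 3626 and 3461 in T47D-PA6. No T47D-PA6 array overlapped the others, and PSMC5 fell by 0.49 against T47D-VC1 (limma adjusted p = 0.0148) and, relative to T47D-PA5, by 0.40 (limma adjusted p = 0.03). PSME3, the nuclear proteasome activator, fell by 0.44 (limma adjusted p = 0.0425). The third was PSMC3IP, which is listed by its name and is not a proteasome subunit. PSMD3, a lid subunit, had a value of -0.34 (limma adjusted p = 0.0524).

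Of 23 genes listed as mitochondrial, not all of which encode mitochondrial proteins, 22 had values below 0, with a median of -0.23, and 1 was called lower. This was MRPL45, a protein of the mitochondrial ribosome, which fell by 0.38 (limma adjusted p = 0.0332). In contrast, the 5 genes for cytosolic ribosomal proteins, each read from its brightest probe, had a median of -0.01 and none was called. RPL19 had a value of 0.06 (limma adjusted p = 0.681) and RPL27 of -0.12 (limma adjusted p = 0.411).

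Of 18 DNA repair and tumor suppressor genes, 16 had values below 0, with a median of -0.26. Called lower against T47D-VC1 were SUZ12 and SPOP, the substrate adaptor of a ubiquitin ligase that acts on nuclear receptor coactivators. SPOP had 3389, 2749 and 2657 in T47D-VC1, 2186, 2776 and 2685 in T47D-PA5, and 1893, 1832 and 1711 in T47D-PA6, and fell by 0.69 (limma adjusted p = 0.0179). BRCA1, the breast cancer susceptibility gene of homologous recombination, had 665, 918 and 967 in T47D-VC1, 1142, 994 and 1031 in T47D-PA5, and 610, 593 and 642 in T47D-PA6. The T47D-PA6 arrays lay below all others, but the value against T47D-VC1 was -0.45 (limma adjusted p = 0.092), and BRCA1 was called lower against T47D-PA5 alone, by 0.78 (limma adjusted p = 0.0156). BRIP1, the helicase partner of BRCA1, behaved alike, with -0.47 against T47D-VC1 (limma adjusted p = 0.0883) and a fall of 0.71 against T47D-PA5 (limma adjusted p = 0.0245). LIG3, a DNA ligase, had a value of -0.58 (limma adjusted p = 0.0522).

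In the blocks known for amplification in breast tumors no gene was called against T47D-VC1. Of 24 genes of the 17q23 amplicon, 21 had values below 0, with a median of -0.28, a lowest value of -0.67 (INTS2, limma adjusted p = 0.0561) and 0 called, while 2 were called lower against T47D-PA5. Of 22 neighbours of ERBB2, 16 had values below 0, with a median of -0.10, and 0 were called in any comparison. The adaptor GRB7, the lipid transfer protein STARD3 and MIEN1, which flank ERBB2, had values of -0.07, -0.15 and -0.22.

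**Figure D5:**
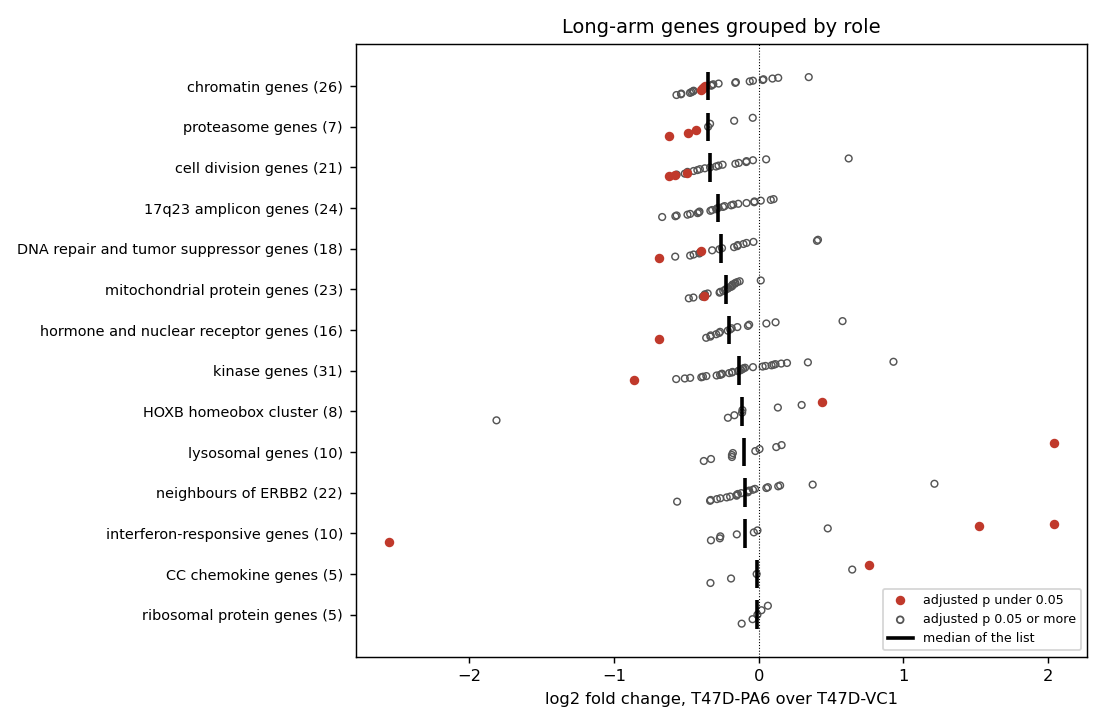
Log2 fold change of T47D-PA6 relative to T47D-VC1 (horizontal axis) of members of 17q grouped by role (vertical axis), with 1 point per gene. Filled points have a limma adjusted p under 0.05, open points do not, and the black bars are list medians. The proteasome, chromatin and cell division lists have the lowest medians, at -0.35, -0.35 and -0.34, and the ribosomal protein and CC chemokine lists lie close to 0.

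Of 16 genes of hormone and nuclear receptor signalling, 13 had values below 0, with a median of -0.20, and SPOP was the gene called. HSD17B1, which makes estradiol, had a value of 0.58 (limma adjusted p = 0.184), and the Mediator subunits MED13 and MED24 had -0.29 and -0.33. Of 31 genes listed with the kinases, not all of which encode kinases, 22 had values below 0, with a median of -0.14. DCAKD, which carries a dephospho-CoA kinase domain and is not a protein kinase, was called, falling by 0.86 at its brightest probe (limma adjusted p = 0.0239). Its second probe had a value of -0.02, and with the mean of both the value was -0.44 and the call was lost (limma adjusted p = 0.0877). In all, 2 of the list were called lower against T47D-PA5, among them the helicase gene BRIP1, which is not a kinase gene. Of 10 genes listed as lysosomal, LGALS3BP was the gene called, and the median was -0.10.

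Of 8 members of the HOXB cluster and its flank, 5 had values below 0 and the median was -0.11. PRAC2, a small nuclear protein gene beside the cluster, rose by 0.44 (limma adjusted p = 0.0187). HOXB8 had 78.5, 35.1 and 26.8 in T47D-VC1, 44.4, 44.2 and 47.1 in T47D-PA5, and 27.3, 4.77 and 13.1 in T47D-PA6, with the highest T47D-PA6 array above the lowest of T47D-VC1. The log2 fold change was -1.81, with an SE of 0.60 (limma adjusted p = 0.0942). Between T47D-VC1 and T47D-PA6, HOXB9 followed the scan run more than the line, with 103, 55.1 and 49.2 in T47D-VC1 and 166, 58.4 and 53.4 in T47D-PA6. Its value was 1.26 in T47D-PA5 over T47D-VC1 (limma adjusted p = 0.211) and -0.97 in T47D-PA6 over T47D-PA5 (limma adjusted p = 0.218).

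The CC chemokine genes of 17q12 that were members, 5 of 14 on the arm by position, had a median of -0.01. CCL3, an inflammatory chemokine, had 327, 418 and 463 in T47D-VC1, 643, 503 and 542 in T47D-PA5, and 563, 723 and 761 in T47D-PA6. It rose by 0.76 over T47D-VC1 (limma adjusted p = 0.0305), a call that was lost without either later array of T47D-VC1, among others, and CCL3L3, a near copy that may share its probe signal, had a value of 0.65 (limma adjusted p = 0.14). CCL2, a monocyte attractant, read 202, 10.4 and 10.9 in T47D-VC1, 39.3, 10.1 and 8.66 in T47D-PA5, and 71.8, 13.5 and 15.8 in T47D-PA6. In all 3 lines the array of the earlier scan run stood far above the later ones, so the value of -0.19 (limma adjusted p = 0.943) rests on those arrays. The later signals lie near background and CCL2 was a member through T47D-PA6 alone, so no direction is read.

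No list had a gene called in T47D-PA5 over T47D-VC1. The list medians of that comparison were 0.24 for the HOXB cluster, 0.04 for the interferon-responsive genes, 0.02 for the 17q23 amplicon and 0.02 for the repair genes, beside 0.01 for the arm.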

How the data were processed

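RNA of the 3 lines was prepared with the RNeasy Plus kit, labeled with 1 color by the Low Input Quick Amp kit and hybridised to SurePrint G3 Human Gene Expression v3 arrays. The spot intensity values deposited by the authors are those of Feature Extraction, with background removed and before any normalization across arrays. The submitters' processing notes name Feature Extraction 9.5.1.1 whereas the file headers name 10.7.1.1. A second deposited file, with intensity values that the authors had quantile-normalized, was used as an alternative. Arrays are limited in precision by their number, 3 per line.

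Of 60901 non-control spots on an array, 46 to 117 were left out as outliers. Spots of a probe were averaged on the log2 scale, values were quantile-normalized between arrays, and a probe was tested when well above background on all 3 arrays of at least 1 line (26172 of 58201 probes). Each gene, by the name in the files, was read from its brightest tested probe. Where no array of a line was well above background, a fold is a bound only, taken per array against the dimmest signal still well above background, or the probe's own signal if that was higher. RefSeq symbols matched 563 members, accessions 41 and synonyms 6, and 222 stayed unmatched. Of the members, 428 had a promoter entry.

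The lines were compared with limma 3.58.1 in R 4.3.3 (lmFit and eBayes), in 1 fit over 9 arrays with 6 residual degrees of freedom, with Benjamini-Hochberg adjustment over all 20099 genes and a threshold of 0.05. Simulated arrays with known changes were used to check the fit. Data were handled with pandas 2.3.3, the R package data.table (version 1.17.8) and numpy 2.4.6, and figures drawn with matplotlib 3.10.9. The members and lists were chosen with earlier results of these data known. Genes named were, among those called, the 10 largest rises and falls over T47D-VC1, the 5 largest in the other comparisons, up to 4 per list by adjusted p, the 4 brightest, those at the limits of the rule and 4 of the lowest window. BRCA1, GRB7, STARD3 and MIEN1 were added after their values were seen, and in the list sections only some of the genes so chosen are given. Alternatives are in the closing section.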

Additional observations from a re-analysis of the deposited data

How the results depend on the processing

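The median of 17q in T47D-PA6 stayed below 0 against T47D-VC1 and T47D-PA5 under every alternative run. It was -0.18 and -0.22 with a 75th percentile shift, -0.19 and -0.20 in the authors' table, -0.1391 and -0.1465 with normexp background correction, and -0.1089 and -0.1236 with no filter on dim probes. When each array was left out in turn it ranged from -0.2217 to -0.1588 and from -0.2261 to -0.1770, and for T47D-PA5 over T47D-VC1 from -0.0043 to 0.0349. In the earlier scan run alone, added after seeing the data, it was -0.1009 against T47D-PA5 and, for T47D-PA5 over T47D-VC1, -0.0451.

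The counts of calls moved more. With 1 array left out, T47D-PA6 over T47D-VC1 gave 7 to 28 higher (0.841% against 2.09% of all genes, to 3.37% against 5.73%) and 13 to 124 lower (1.56% against 1.51%, to 14.9% against 7.41%). T47D-PA5 over T47D-VC1 gave 1 to 12 higher (0.12% against 0.408%, to 1.44% against 1.6%) and 1 to 4 lower (0.12% against 0.174%, to 0.481% against 0.711%). T47D-PA6 over T47D-PA5 gave 4 to 19 higher (0.481% against 1.44%, to 2.28% against 4.98%) and 19 to 131 lower (2.28% against 2.4%, to 15.7% against 8.2%). With no filter, 53 were lower over T47D-VC1 (3.71% against 1.5%) and 7 higher over T47D-PA5 (0.49% against 1.07%). With a fit to the compared lines alone, 32 were lower in T47D-PA6 (3.85% against 2.58%) and 3 higher in T47D-PA5 (0.361% against 1%), both over T47D-VC1. The methods' t-test after adjustment gave 6 higher (0.721% against 1.18%) and 17 lower (2.04% against 0.97%) in T47D-PA6 over T47D-VC1. In T47D-PA5 over T47D-VC1 it gave 0 higher (0% against 0.154%) and 1 lower (0.12% against 0.0398%). In T47D-PA6 over T47D-PA5 it gave 2 higher (0.24% against 1.47%) and 31 lower (3.73% against 2.46%). A ratio above 2 or below 0.6 gave 11 (1.32% against 3.47%) and 49 (5.89% against 4.16%) in T47D-PA6 over T47D-VC1. It gave 13 (1.56% against 2.16%) and 7 (0.841% against 1.76%) in T47D-PA5 over T47D-VC1, and 46 lower in T47D-PA6 over T47D-PA5 (5.53% against 5.3%). T47D-PA5 over T47D-VC1 had 1 lower with normexp (0.12% against 0.353%) and 1 lower among genes well above background on all 9 arrays (0.13% against 0.252%). It had 12 higher with the slide as a block (1.44% against 2.29%).

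Of 9 correlations between deviations of arrays of the same number, 8 were over 0.1 and the lowest was 0.0994 (highest 0.3379), and 4 of 9 arrays were closest to their own number. The numbers were not taken to pair the lines, as 1 correlation fell just short of 0.1, though all 9 were above 0. Replicate 1 of each line shared the earlier scan run, which the main fit did not model, so its spread includes the difference between runs. The 2 later arrays of a line had a median absolute log2 difference over all genes of 0.0854 to 0.108. Between them and replicate 1 of their line it was 0.2095 to 0.2678. With the replicate number as a block, calls were 25 higher and 112 lower in T47D-PA6 over T47D-VC1 (6.06% and 6.96% of all genes), 10 and 2 in T47D-PA5 (1.9% and 0.537%), and 16 and 110 in T47D-PA6 over T47D-PA5 (4.6% and 7.4%).

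In the later scan run alone, added after seeing the data, calls rose to 75 and 295, 119 and 35, and 46 and 340, where 17.2% and 19.9%, 11.7% and 9.72%, and 17% and 18.5% of all genes were called. CCL2 in T47D-PA6 over T47D-VC1 was 0.46 there and -0.19 over all arrays, but its later T47D-VC1 signals lie near background and no direction is read. The cause of these changes was not tested, apart from the fewer arrays or other genes that a setting holds. With signals near background, differences of dim genes are limited to bounds.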
